A study of Mus musculus with 3 samples.

Results

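The 40 genes described here carry out or mark the copying and the division of the genome: 9 license and fire replication origins, 5 form the fork clamp or supply nucleotides, 6 are cyclins E, A and B with Cdk1, 9 belong to the mitotic checkpoint and kinases, 5 belong to chromosomes, centromeres and the Ki-67 layer, and 6 serve the spindle and cytokinesis. They were taken by symbol and not by a cut on a measured value, but earlier results of these data were known when they were chosen. All 40 were found among the 48709 genes of the count table. The data are 3 RNA-seq libraries of cells sorted from digested mouse lung and labelled as lung smooth muscle cells, all in 1 group named WT, called libraries 1, 2 and 3 below. Every mouse carried a smooth muscle actin CreERT2 transgene and a tdTomato transgene. Each received 75 mg/kg tamoxifen daily by intraperitoneal injection for 10 days from an age of 8 weeks and was killed 2 months later. CreERT2 is a recombinase that tamoxifen activates, and the actin promoter that drives it is active in smooth muscle and in other contractile cells. The sort used a FACSAria instrument, and its gate is not stated by the labels. With 1 group there is no comparison between conditions, and nothing says that the libraries came from separate animals, so a p-value below measures only the spread between these libraries, which may be technical.

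As background, a cell that is to divide first loads the Mcm2 to Mcm7 helicase ring on its origins through Cdc6 and Cdt1, while geminin holds Cdt1 back once copying has begun. Cyclin E and cyclin A with their kinases start the S phase, the Pcna ring ties polymerases to the fork, and cyclin B with Cdk1 drives mitosis, where Aurora kinases, centromere proteins and kinesins move the chromosomes. Genes for the S phase are often under E2F factors, and many mitotic genes are under the MuvB complex, which binds a short element called the cell cycle homology region (CHR) near the start site. Most cells of the adult lung rest outside the cycle, and lymphocytes and some epithelial cells divide when stimulated.

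The library totals were 16877297 to 18896263 counts, and a gene with no count could hold up to 3 counts, or 0.159 to 0.178 counts per 1000000 counts of a library (CPM). The labelled cell type was checked against its markers. The median over 10 smooth muscle markers was 3.67 ± 0.24 (SD, n = 3) on the log2(CPM + 1) scale, against 6.96 ± 0.18 for 12 T, B and NK cell markers. Cnn1, a calponin of smooth muscle, had 0, 7 and 5 counts in libraries 1, 2 and 3, and Acta2, the smooth muscle actin, stood at 11.2, 17.1 and 11.3 CPM. The markers of T, B and NK cells summed to 1928, 2198 and 2606 CPM, those of airway epithelium to 13730, 2773 and 7883 CPM, and those of smooth muscle to 139, 180 and 149 CPM. Of the airway sums, the secretory gene Scgb1a1 alone gave 13192, 2632 and 7641 CPM, while Foxj1 of that list was at 4.34, 1.09 and 0.948 CPM. Markers of other cells thus exceeded those of the labelled type, and the cells that carried the transcripts below were not identified. In such bulk libraries, fewer cycling cells and less RNA per cell cannot be told apart.

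Promoter sequences are shown first for 6 genes that between them hold each motif searched and stand for the helicase ring, mitotic entry, the dividing chromosome and the spindle. They come from RefSeq on build GRCm38.p6 and end at or before the base next to the start site, 5′ to 3′ on the gene's strand. Bases that the deposited table places inside the gene were left out. The windows are chr1:128359706-128359865 (minus strand) for Mcm6, chr8:75109349-75109508 (plus) for Mcm5, chr10:69352939-69353072 (minus) for Cdk1, chr7:135716380-135716539 (minus) for Mki67, chr11:99024190-99024349 (minus) for Top2a and chr19:37376222-37376381 (plus) for Kif11. Capitals mark matches, on either strand, to the CHR core TTTGAA. They also mark the core CCAAT, which the factor NF-Y binds. The E2F-type sites searched were TTTCGCGC and TTTGGCGC, and matches may overlap.
Mcm6: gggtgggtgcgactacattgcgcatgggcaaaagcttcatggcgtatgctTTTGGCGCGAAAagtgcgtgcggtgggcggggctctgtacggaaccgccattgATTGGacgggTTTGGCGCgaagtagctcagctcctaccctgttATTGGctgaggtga
Mcm5: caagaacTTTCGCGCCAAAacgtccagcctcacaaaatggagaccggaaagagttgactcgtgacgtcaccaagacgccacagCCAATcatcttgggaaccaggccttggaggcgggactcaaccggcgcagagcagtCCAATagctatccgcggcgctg
Cdk1: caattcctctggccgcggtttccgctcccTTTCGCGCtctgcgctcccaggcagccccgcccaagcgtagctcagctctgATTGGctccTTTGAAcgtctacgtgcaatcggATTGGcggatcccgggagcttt
Mki67: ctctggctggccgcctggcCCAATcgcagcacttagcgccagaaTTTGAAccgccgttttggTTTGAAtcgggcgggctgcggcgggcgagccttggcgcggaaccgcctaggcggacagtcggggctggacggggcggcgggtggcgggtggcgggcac
Top2a: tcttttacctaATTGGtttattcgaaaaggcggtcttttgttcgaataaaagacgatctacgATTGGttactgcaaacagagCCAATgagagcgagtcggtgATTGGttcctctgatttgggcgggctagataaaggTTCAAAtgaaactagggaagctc
Kif11: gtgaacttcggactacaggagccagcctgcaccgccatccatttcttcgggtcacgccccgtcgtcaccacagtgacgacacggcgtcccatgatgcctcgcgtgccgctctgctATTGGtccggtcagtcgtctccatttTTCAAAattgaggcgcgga
The windows of the helicase genes Mcm6 and Mcm5 hold E2F-type matches and no TTTGAA. In Mcm5 a pair of them overlaps on opposite strands, starting at -153 and -149 from the start site, and in Mcm6 a like pair starts at -110 and -106 with another at -47. Mki67 and Top2a have the reverse pattern in these windows, with TTTGAA at -116 and -98 in Mki67 and on the opposite strand at -23 in Top2a. Cdk1, the kinase of mitotic entry, holds both kinds, with an E2F-type match at -131 and TTTGAA at -71. Kif11, a spindle motor, has TTTGAA on the opposite strand at -19 and CCAAT, also on the opposite strand, at -45. Positions give the base of the match farthest before the start site, where -1 is the base next to it.

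RefSeq promoters of 300 bases, 250 before the start and 50 from it on, were found for 33 of the 40 genes; Mcm4, Gmnn, Ccne2, Ccna2, Aurkb, Kif20a and Tpx2 were not matched. TTTGAA was present in 15 of the 33 (45.5%), in 20.2% of the promoters of 27025 genes and in 17.7% for the 16159 protein-coding genes among them. Split by role, TTTGAA was in 1 of 12 replication genes (8.33%), in 2 of 4 genes of the cyclins and Cdk1, and in 12 of 17 mitosis genes (70.6%). That replication gene was Mcm2 of the helicase ring, which held no E2F-type site, unlike Mcm3, Mcm5, Mcm6 and Mcm7. The E2F-type sites went the other way, being in 5 of 12 replication genes (41.7%), in 1 of 4 of the cyclins and Cdk1 and in 0 of 17 mitosis genes. They were in 0.929% of all genes and in 1.23% of protein-coding genes. CCAAT was in 26 of 33 (78.8%), with 8 of 12 in replication and 15 of 17 (88.2%) in mitosis genes. It was in 41.1% of all genes and in 42.2% of protein-coding genes. These are counts of letters in a window, with no test, and a match is not a shown binding site.

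Transcripts of the set were present at low to moderate levels, and the median of the replication genes was above that of the mitosis genes. All 3 libraries had counts for 38 of the 40 genes. A mean of at least 1 CPM was reached by 35 of the 40 (87.5%), against 59.4% of 22005 nuclear protein-coding genes. A mean of at least 10 CPM was reached by 13 (32.5%, against 35.8%), and no gene of the set reached a mean of 100 CPM (against 5.89%). The median of log2(CPM + 1) over the 40 genes was 2.20, 2.25 and 2.48 in libraries 1, 2 and 3, a mean of 2.31 ± 0.15 (SD, n = 3), beside 2.52 over all genes tested and 3.49 over tested nuclear protein-coding genes. The RNA of the set was concentrated in a few genes, since Pcna alone made up 15.1% of the summed mean CPM, the first 5 genes (Pcna, Cenpa, Mcm4, Mki67 and Mcm6) 47.6% and the first 10 genes 77.1%.

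**Figure D1:**
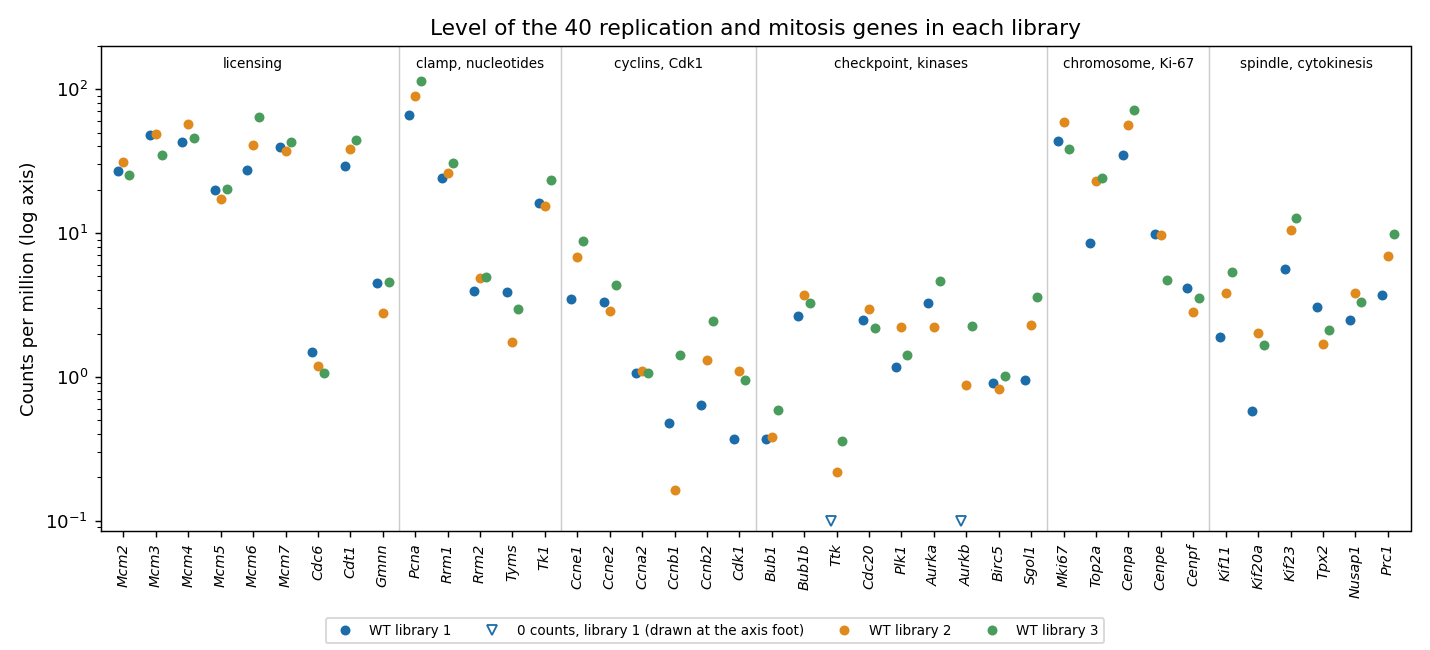
CPM of each of the 40 genes (log axis) in libraries 1, 2 and 3, ordered by role; open triangles at the foot mark 0 counts in library 1 for Ttk and Aurkb. The licensing genes other than Cdc6 and Gmnn lie between 17.3 and 64.3 CPM, while Cdk1 and the B-type cyclins lie at or below 2.43 CPM.

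Levels of different genes were compared per kilobase (kb) of exon. The 14 replication genes had medians of 4.46, 4.41 and 4.76 CPM per kb in the 3 libraries, and the 20 mitosis genes had medians of 0.571, 0.854 and 0.763 CPM per kb. The lowest replication median was above the highest mitosis median, but the genes of the groups overlapped: Cdc6 (0.239) and Tyms (0.469) lay below the mitosis median, and Cenpa (9.27) and Mki67 (4.68) lay above the mean replication median of 4.54. On the log2(CPM + 1) scale the replication median exceeded the mitosis median by 2.84 ± 0.12 (SD, n = 3), and by 1.68 ± 0.12 when the levels were taken per kb first. An exact sign-flip test over 3 libraries cannot give a p below 0.25, so none is given. Pcna was highest at 37.6 ± 10.2 CPM per kb, then Mcm4 at 13.6 ± 2.08, Cdt1 at 11.9 ± 2.39 and Mcm3 at 11.7 ± 2.16, and Ttk was lowest at 0.0389 ± 0.0364. Of the 39 steps between neighbours in this order, 4 exceeded the larger SD of the pair of genes: those below Pcna, below Mcm7, below Rrm2 and below Bub1. The order of direct neighbours at the other steps is thus not resolved by 3 libraries, and genes farther apart were not compared this way.

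Among the licensing genes, the helicase subunits were abundant and the loader Cdc6 was scarce. Mcm4 (minichromosome maintenance 4) had 43.1, 57.1 and 45.8 CPM in libraries 1, 2 and 3, a mean of 48.7 ± 7.46 (SD, n = 3), with library 2 highest. Mcm3 had 48.2, 49.2 and 34.7 CPM, with library 3 below the other two, and differed 1.56-fold (95% interval 1.41 to 1.74) between its highest and lowest library once totals were scaled by TMM (trimmed mean of M values), with adjusted p = 1.18e-18 in the chi-square test of homogeneity. That test asks of each gene whether its counts differ between libraries beyond counting error, and its p-values were adjusted by Benjamini-Hochberg over the 23317 genes with at least 10 counts. Mcm4 also varied, 1.36-fold (adjusted p = 9.06e-11). Folds and their exact 95% intervals below are on the same scaled totals, and the intervals cover counting error only. The highest and lowest library were picked from the same counts, so the folds lean high, most of all at low counts. The intervals make no allowance for that choice.

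Mcm6 (ENSMUSG00000026355, chr1:128331590-128359664, minus strand) varied most within the ring. It had 515, 747 and 1085 counts, or 27.3, 40.7 and 64.3 CPM, with library 1 lowest and library 3 highest and 2.09-fold (95% interval 1.88 to 2.33) between them (adjusted p = 4.52e-44, chi-square test). Mcm2 had 27.1, 31.3 and 25.4 CPM and varied 1.34-fold (adjusted p = 7.08e-05). The variation of Mcm5, at 20.1, 17.3 and 20.1 CPM, and of Mcm7, at 39.7, 37.4 and 43.3 CPM, did not pass the test (adjusted p = 0.0664 and adjusted p = 0.230). Mcm7 hosts the microRNAs Mir25 and Mir93, faces the antisense gene Ap4m1 and has 23.3% of its 50-base words in common with other genes, so its counts are uncertain.

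The subunits act as a ring with 1 copy of each, yet their levels per kb were not equal. Mcm3 stood above Mcm2 by a log2 ratio of 1.33 ± 0.18, Mcm4 by 1.53 ± 0.11, Mcm6 by 0.99 ± 0.61 and Mcm7 by 1.01 ± 0.22, each with the same sign in all 3 libraries. Mcm5 and Mcm2 had a ratio of 0.21 ± 0.22 with no common sign. These ratios depend on the length used, because Mcm2 has a long union of annotated exons: with the principal transcript as length, Mcm3 over Mcm2 was 0.73, Mcm4 over Mcm2 was 0.64, and Mcm5 over Mcm2 was -0.48. Ratios of gene levels are on the log2(CPM per kb + 1) scale unless said otherwise, which pulls ratios of low genes towards 0.

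Cdc6, the loader that works with Cdt1, had 28, 22 and 18 counts (1.48, 1.20 and 1.07 CPM), the lowest of the licensing genes at 0.239 ± 0.0406 CPM per kb. Cdt1 had 29.3, 38.6 and 44.1 CPM, lowest in library 1 and highest in library 3, 1.34-fold apart (adjusted p = 1.35e-06). Geminin (Gmnn), the inhibitor of Cdt1, had 85, 51 and 77 counts and was lowest in library 2 (1.67-fold, adjusted p = 0.0180). Cdt1 exceeded geminin per kb by 1.80 ± 0.43 on the log2 scale, in all 3 libraries.

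Pcna (ENSMUSG00000027342, chr2:132249162-132253314, minus strand), the sliding clamp, was the most abundant gene of the set. It had 1247, 1651 and 1937 counts, or 66.0, 89.9 and 115 CPM, and ranked 565 among 22005 nuclear protein-coding genes per kb. Library 1 was lowest and library 3 highest, 1.54-fold (95% interval 1.44 to 1.66) apart (adjusted p = 7.41e-31, chi-square test). Of its 50-base words, 19.1% occur in other genes, chiefly the processed copy Pcna-ps2, so part of its count is uncertain.

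The nucleotide suppliers were less abundant per kb than Pcna, between 0.469 and 3.52 CPM per kb. Rrm1, the large subunit of ribonucleotide reductase, had 24.1, 26.0 and 30.6 CPM, and Rrm2, the small subunit that is made in the S phase, had 3.97, 4.85 and 4.98 CPM. Neither passed the test (adjusted p = 0.208 and adjusted p = 0.598), and Rrm1 stood above Rrm2 per kb by 0.37 ± 0.07, or by 1.32 with principal transcripts. Thymidine kinase (Tk1) had 16.2, 15.3 and 23.3 CPM with library 3 highest (1.40-fold, adjusted p = 7.96e-05). Thymidylate synthase (Tyms) had 73, 32 and 50 counts with library 2 lowest and library 1 highest (2.29-fold (95% interval 1.49 to 3.59), adjusted p = 0.000592). The salvage enzyme Tk1 exceeded the synthesis enzyme Tyms per kb by 1.61 ± 0.27, in all 3 libraries, by 2.96 ± 0.57 with no pseudocount and by 2.84 ± 0.35 with principal transcripts.

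The cyclins and Cdk1 were scarce, apart from the E-type cyclins. Cyclin E1 (Ccne1) had 3.49, 6.81 and 8.83 CPM, lowest in library 1 and highest in library 3 (2.24-fold (95% interval 1.67 to 3.05), adjusted p = 5.67e-07). Cyclin E2 (Ccne2) had 3.33, 2.89 and 4.38 CPM (adjusted p = 0.214), and cyclin E1 stood above it per kb by 0.71 ± 0.41, in all 3 libraries, or by 1.16 ± 0.62 with no pseudocount. Of the exon bases of Ccne2, 17.4% also lie in Ints8. Cyclin A2 (Ccna2) gave 20, 20 and 18 counts, nearly the same share of each library (adjusted p = 0.936, chi-square test). For Ccna2, 12.5% of the exon bases are antisense to Exosc9, so its few counts are uncertain.

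Cyclin B1 (Ccnb1, ENSMUSG00000041431, chr13:100778650-100786570, minus strand) had 9, 3 and 24 counts, so library 2 was at the limit of detection. Its libraries differed 7.99-fold (95% interval 2.43 to 41.4) with adjusted p = 0.000162, the widest measured fold of the 40 genes apart from Aurkb and resting on 36 counts. For Ccnb1, 23.4% of the 50-base words recur elsewhere, chiefly in the pseudogene Ccnb1-ps. Cyclin B2 (Ccnb2) had 12, 24 and 41 counts, again with library 3 highest (3.40-fold (95% interval 1.75 to 7.10), adjusted p = 0.000641), and the log2 ratio of cyclin B1 to cyclin B2 per kb was -0.71 ± 0.32, negative in all 3 libraries. That size too rests on the pseudocount, being -2.86 ± 1.40 with none. Cdk1, the partner of both, had 7, 20 and 16 counts (0.370, 1.09 and 0.948 CPM), and its variation did not pass the test (adjusted p = 0.0643).

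The checkpoint genes and mitotic kinases summed to 11.8, 15.7 and 19.3 CPM over 9 genes. Aurora kinase B (Aurkb, ENSMUSG00000020897, chr11:69045647-69051664, plus strand), the kinase of the chromosomal passenger complex, had 0, 16 and 38 counts. Library 1 therefore held no count where library 3 held 2.25 CPM, and library 3 was at least 12.6-fold higher when the 0 was set to 3 counts (adjusted p = 1.04e-08, chi-square test). Birc5 (survivin), a partner of Aurkb in that complex, had 17, 15 and 17 counts and was present in library 1 (adjusted p = 0.928). The ratio of Birc5 to Aurkb per kb had no common sign over the libraries (-0.06 ± 0.39).

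Aurora kinase A (Aurka), which acts at spindle poles, had 62, 41 and 78 counts with library 2 lowest (1.90-fold, adjusted p = 0.00626), and exceeded Aurkb per kb by 0.81 ± 0.35, or by 2.09 ± 1.49 with a pseudocount of 0.1. Shugoshin (Sgol1, now named Sgo1), the guardian of centromeric cohesion, had 18, 42 and 61 counts, lowest in library 1 and highest in library 3 (3.37-fold (95% interval 1.96 to 6.06), adjusted p = 3.51e-05). Polo-like kinase 1 (Plk1) had 22, 41 and 24 counts with library 2 highest (1.86-fold, adjusted p = 0.0355).

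The checkpoint genes themselves did not pass the test. Bub1 had 7, 7 and 10 counts, its relative Bub1b 50, 68 and 55 and Ttk, which starts checkpoint signalling, 0, 4 and 6. Cdc20, the activator of the anaphase-promoting complex that the checkpoint restrains, had 47, 54 and 37 counts. The adjusted p-values of Bub1, Bub1b, Ttk and Cdc20 were 0.720, 0.269, 0.0824 and 0.238 (chi-square test), and the log2 ratio of Bub1 to Bub1b per kb was -0.66 ± 0.10, negative in all 3 libraries. As both are below 1 CPM per kb, the pseudocount sets that size: the ratio was -2.06 with a pseudocount of 0.1 and -2.89 ± 0.41 with none. A 0 in library 1 for Ttk allows up to 0.159 CPM, against 0.218 and 0.356 CPM in libraries 2 and 3, and the test did not separate the libraries.

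**Figure D2:**
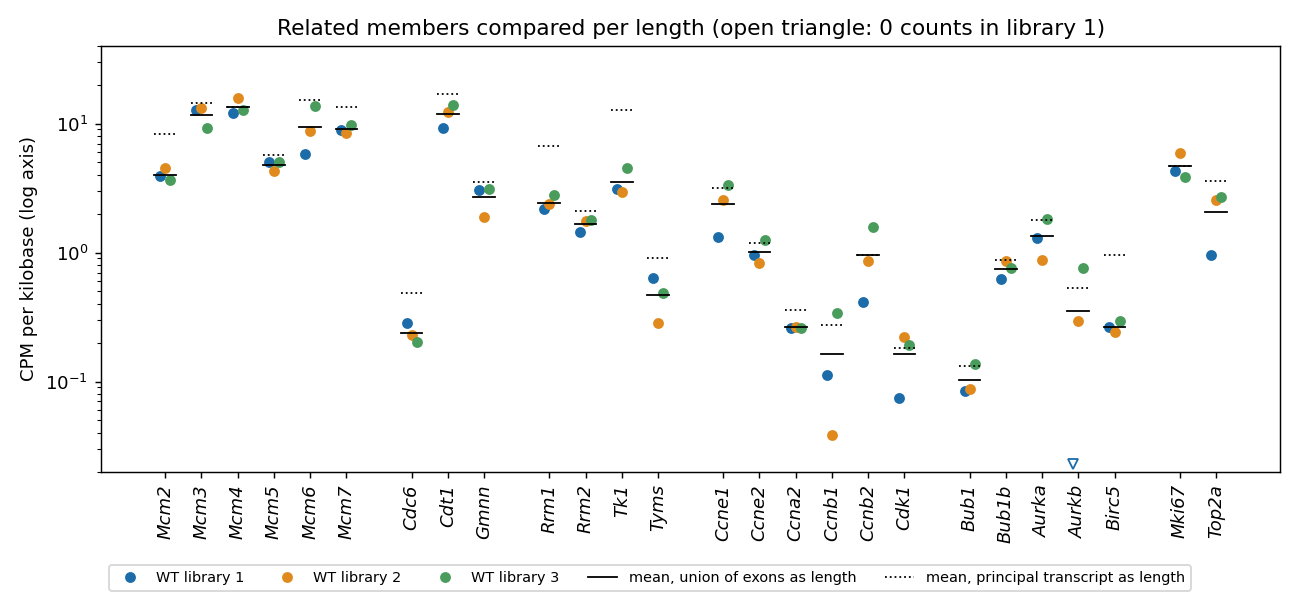
CPM per kilobase of exon (log axis) of genes compared with each other, with points for the 3 libraries, a solid bar for the mean over the union of exons and a dotted bar for the mean with the principal transcript as length. Mcm4 (13.6) lies above Mcm2 (4.01), Cdt1 (11.9) above Gmnn (2.69), and Ccnb1 (0.163) below Ccnb2 (0.952).

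The chromosome and centromere genes contained the most abundant mitotic transcripts. Mki67 (ENSMUSG00000031004, chr7:135689784-135716361, minus strand) encodes Ki-67, the protein that coats mitotic chromosomes and is the common stain for cycling cells. It had 820, 1088 and 653 counts, or 43.4, 59.3 and 38.7 CPM, with library 2 highest and library 3 lowest (1.67-fold (95% interval 1.51 to 1.84), adjusted p = 5.22e-24). Top2a (ENSMUSG00000020914, chr11:98992943-99024189, minus strand), the topoisomerase that untangles sister chromosomes, had 162, 422 and 409 counts, or 8.57, 23.0 and 24.2 CPM. Library 1 was lowest there, 2.59-fold (95% interval 2.16 to 3.13) below library 2 (adjusted p = 3.06e-27). The pair are often read together as proliferation markers. Over the union of exons, Mki67 was above Top2a per kb by 0.93 ± 0.53, in all 3 libraries. With principal transcripts as length the ratio was 0.38 ± 0.61, an SD larger than the mean, so no common direction is shown there.

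Cenpa (ENSMUSG00000029177, chr5:30666777-30674830, plus strand) encodes the histone H3 variant that marks centromeres. It had 664, 1027 and 1213 counts, or 35.1, 55.9 and 71.9 CPM, lowest in library 1 and highest in library 3 (1.82-fold (95% interval 1.65 to 2.00), adjusted p = 1.39e-33). Its level per kb depends on the length used, being 9.27 ± 3.14 over the union of 5860 exon bases and 37.1 ± 12.6 over the principal transcript of 1466 bases. Cenpe, the kinesin of the kinetochore, had 9.84, 9.75 and 4.68 CPM, with library 3 below the others (2.37-fold (95% interval 1.81 to 3.12), adjusted p = 1.70e-10). Cenpf, a large kinetochore protein, had 78, 52 and 60 counts and did not pass the test (adjusted p = 0.0763).

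The spindle genes summed to 17.4, 28.8 and 34.9 CPM over 6 genes. Kif11, the motor that pushes spindle poles apart, had 36, 70 and 91 counts (2.51-fold (95% interval 1.69 to 3.81), adjusted p = 2.96e-05). Kif23 and Prc1, a motor and a bundling protein of the central spindle, had 107, 194 and 213 and 70, 127 and 165 counts, and varied 1.98-fold and 2.34-fold (adjusted p = 5.58e-08 and adjusted p = 4.03e-08). Kif11, Kif23 and Prc1 were each lowest in library 1 and highest in library 3. Prc1 has 11.1% of its exon bases antisense to Rccd1. Kif20a, another motor of cytokinesis, had 11, 37 and 28 counts (3.35-fold (95% interval 1.67 to 7.28), adjusted p = 0.00220), with 29.3% of its exon bases antisense to Cdc23.

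Tpx2, the activator of Aurora kinase A on spindle microtubules, went another way, with 58, 31 and 36 counts and library 1 highest (1.88-fold, adjusted p = 0.0111). Nusap1, which bundles microtubules near chromosomes, had 47, 70 and 56 counts and did not pass the test (adjusted p = 0.129).

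Over the whole set, 25 of 40 genes (62.5%) varied between libraries beyond counting error at an adjusted p under 0.05 (chi-square test of homogeneity), against a background of 70.0% of the 23317 genes tested. The share is thus near that of any gene. By depth, it was 5 of 11 (45.5%) for genes of 10 to under 100 counts in all, against a background of 61.5%. It was 12 of 18 (66.7%) for 100 to under 1000 counts, against 69.4%, and 8 of 11 (72.7%) for at least 1000 counts, against 81.5%. By role, the genes past the test were 6 of 9 in licensing, 3 of 5 in the clamp and nucleotide group, 3 of 6 in cyclins and Cdk1, 4 of 9 in the checkpoint and kinases, 4 of 5 in chromosomes and 5 of 6 in the spindle group. The median fold between the highest and lowest library was 1.67 for the 40 genes, 1.70 for all tested genes and 1.50 for tested nuclear protein-coding genes. Since folds depend on depth, the medians by depth were 1.99 against 3.38 for all genes of 10 to under 100 counts, 1.89 against 1.6 for 100 to under 1000, and 1.36 against 1.25 for at least 1000. The median biological coefficient of variation, edgeR's estimate of spread beyond counting error, was 0.325 for the 35 genes kept by its expression filter. It was 0.258 for all 16608 genes kept and 0.235 for the 12833 protein-coding genes among them. Unlike the folds, these medians were not compared by depth, so they do not show that the set is more variable than genes of like depth.

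The libraries differed in direction over these genes. Of the 40 genes, 14 (35.0%) varied and were lowest in library 1, against a background of 28.2%, and 14 (35.0%) varied and were highest in library 3, against 19.9%. Both held for 11 genes (27.5%, against 13.3% of all tested genes), a class chosen after the values were seen: Mcm6, Cdt1, Pcna, Ccne1, Ccnb2, Aurkb, Sgol1, Cenpa, Kif11, Kif23 and Prc1. The other genes past the test did not follow that order, among them Mki67, Mcm3 and Cenpe, which were lowest in library 3, and Tyms, Gmnn and Ccnb1, which were lowest in library 2. The choice of scaling matters here: with plain library totals in place of TMM, 28 genes passed the test, while the share over all genes was 72.1%. Of the 28 genes, 17 were lowest in library 1 and 18 highest in library 3. Beside TMM (factors 0.951 and 1.07), plain totals lower library 1 and raise library 3 for every gene. The shares of all genes by direction are not given for plain totals, so these counts are not read as a trait of the set. Without library 1, 12 of the 40 passed, against 38.2% of all genes tested.

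**Figure D3:**
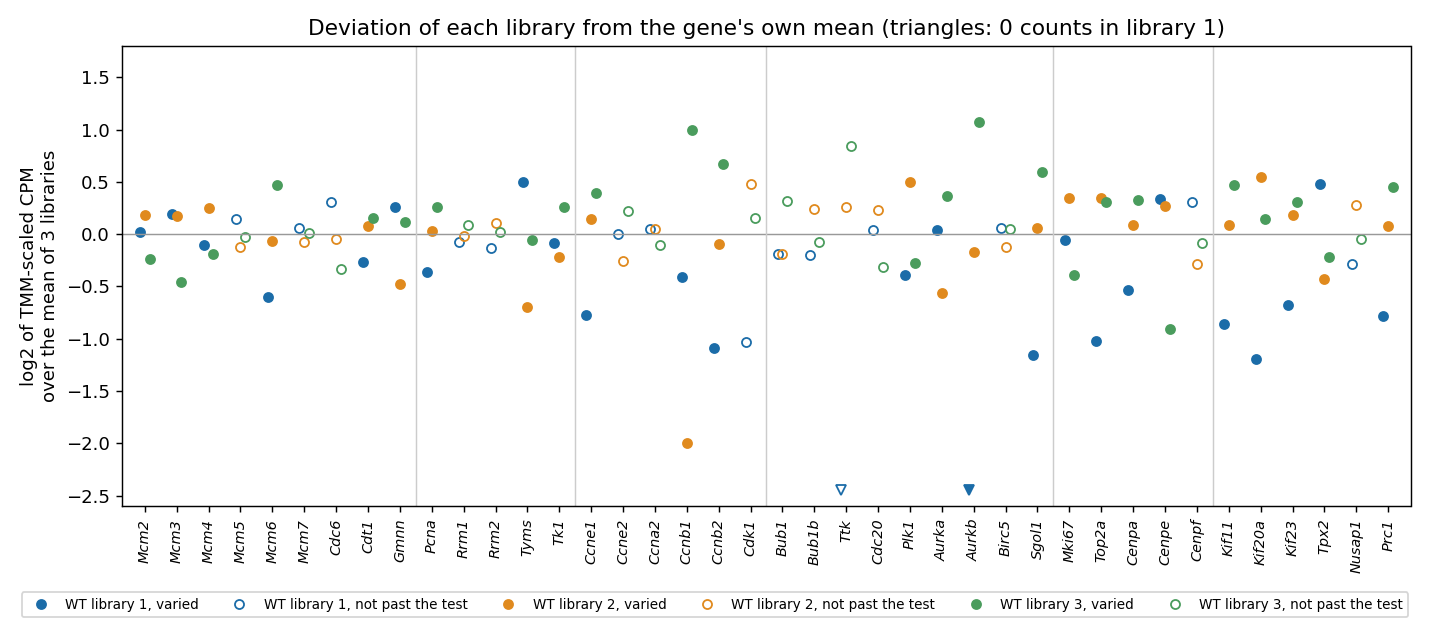
Each library's TMM-scaled CPM over the gene's own mean, in log2 units, for the 40 genes; filled points belong to the 25 genes that varied beyond counting error, open points to the other 15, and triangles at the foot to 0 counts in library 1. Library 1 lies below 0 for Mcm6, Pcna, Cenpa, Top2a, Kif11 and Prc1, and library 3 lies below 0 for Mcm3, Mki67 and Cenpe.

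Markers of several cell types differed between the same libraries, and their part in the pattern was not tested. The B-cell genes Cd79a, at 114, 172 and 233 CPM, and Ms4a1, at 78.0, 110 and 155 CPM, were lowest in library 1 and highest in library 3. The same order held for the NK-cell genes Nkg7, at 53.0, 57.7 and 81.2 CPM, and Klrd1, at 23.0, 26.9 and 50.6 CPM. The T-cell genes Cd3e, at 153, 147 and 98.1 CPM, and Il7r, at 294, 288 and 224 CPM, were lowest in library 3. Markers of fibroblasts summed to 740, 1451 and 1517 CPM and those of plasma and germinal centre cells to 156, 477 and 356 CPM, while those of alveolar epithelium summed to 2163, 440 and 535 CPM. Of the 7 genes in the plasma and germinal centre list, 5 reached a mean of 1 CPM, and Rgs13 alone had 0 counts in all 3 libraries. In that list Jchain was at 51.8, 354 and 243 CPM, while Xbp1 was at 56.3, 63.4 and 50.5 CPM, lowest in library 3. Red cell markers summed to 424, 1915 and 644 CPM, myeloid markers to 874, 269 and 356 CPM and endothelial markers to 716, 423 and 536 CPM. Single genes made up much of some sums. Lyz2 alone gave 704, 189 and 235 CPM of the myeloid sums, while the median myeloid marker was at 14.4, 11.7 and 16.1 CPM. Gsn gave 471, 871 and 943 CPM of the fibroblast sums, and Sftpc gave 1352, 246 and 284 CPM of the alveolar sums. Replication genes summed to 355, 413 and 460 CPM in the same libraries and mitosis genes to 130, 195 and 197 CPM, on plain totals. The replication sums include Pcna, at 66.0, 89.9 and 115 CPM, and Mcm6, at 27.3, 40.7 and 64.3 CPM. The median replication gene was at 25.6, 28.6 and 28.0 CPM. Of the 9 replication genes past the test, 3 were lowest in library 1, 3 in library 2 and 3 in library 3. Over all genes, 16333 passed the test, of which 6587, 5252 and 4494 were lowest in libraries 1, 2 and 3. Whether the replication genes differ from that split was not tested.

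Other genes of the cycle were taken as lists chosen by function. The counts of varying genes below stand against the background of 70.0% of all genes tested. Among 17 genes of origin recognition and helicase activation, 9 varied beyond counting error, a share below that background. Per kb, Gins4, a subunit of the active helicase, was highest at 8.74 ± 1.86 CPM and Mcm10 was lowest with 12, 10 and 19 counts. Among 23 genes of polymerases, the clamp loader and repair at the fork, 15 varied, with the maintenance methyltransferase Dnmt1 at 16.5 ± 0.505 CPM per kb and the flap nuclease Fen1 at 14, 5 and 14 counts. Among 17 E2F, MuvB and FoxM1 regulators, 11 varied. The repressor E2f4 led them at 17.7 ± 1.03 CPM per kb, while E2f7 had 37, 8 and 18 counts.

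Among 15 genes of condensin, cohesin and separase, 9 varied, against 70.0% of all genes. Smc4 (61.2 ± 8.93 CPM per kb) and the cohesin subunit Rad21 (49.8 CPM per kb) led, while separase itself (Espl1), which opens cohesin rings at anaphase, had 0, 13 and 25 counts (adjusted p = 1.56e-05, chi-square test), the same order of libraries as Aurkb. Of 18 kinetochore and centromere genes 17 could be tested and 13 varied, with Cenpm at 1, 0 and 5 counts. Of 24 mitotic kinesins and spindle genes 18 varied, with Kif2c at 6, 3 and 5 counts. Of 12 replication-dependent histone genes, 9 varied and all 9 were highest in library 2, while 22.0% of all tested genes varied and were highest there. Such transcripts end without a poly(A) tail, which total RNA libraries retain.

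The 14 quiescence and antiproliferative genes had a median of 7.09 on the log2(CPM + 1) scale, and the median of the 40 genes minus theirs was -4.78 ± 0.18 (SD, n = 3). Btg1, an antiproliferative factor of lymphocytes, and Klf2, a factor of resting T cells and endothelium, were at 134 ± 6.63 and 129 ± 22.6 CPM per kb. Among 16 G1 cyclins, kinases and inhibitors, 10 varied, against 70.0% of all genes. The inhibitor p27 (Cdkn1b) was highest at 29.3 ± 4.13 CPM per kb, followed by cyclin D2 (Ccnd2), and p16 with p19 (Cdkn2a) was lowest with 3, 6 and 5 counts. Over the union of exons, the mean level of Cdkn1b per kb was above that of 39 of the 40 genes, Pcna being higher.

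Compared list by list, the 40 genes had a lower median than 16 of 18 other lists in every library, or than 14 of 18 when each list was summarised by its mean and 15 without genes sharing words. On the log2(CPM + 1) scale, their median minus that of the list was -4.65 ± 0.08 for T, B and NK cell markers, -4.52 ± 0.55 for fibroblast markers and -1.36 ± 0.25 for smooth muscle markers. It was -0.68 ± 0.20 for the origin genes, -1.26 ± 0.04 for the polymerase list and -2.23 ± 0.08 for condensin and cohesin. With list means, the difference was -0.02 ± 0.08 for the origin genes and -0.30 ± 0.26 for smooth muscle, so neither size is stable. The lists below them in every library were the kinetochore genes, by 0.76 ± 0.31, and the mitotic kinesins, by 0.42 ± 0.09. Lists differ in gene length and in how they were chosen, so these differences are descriptions with no test.

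**Figure D4:**
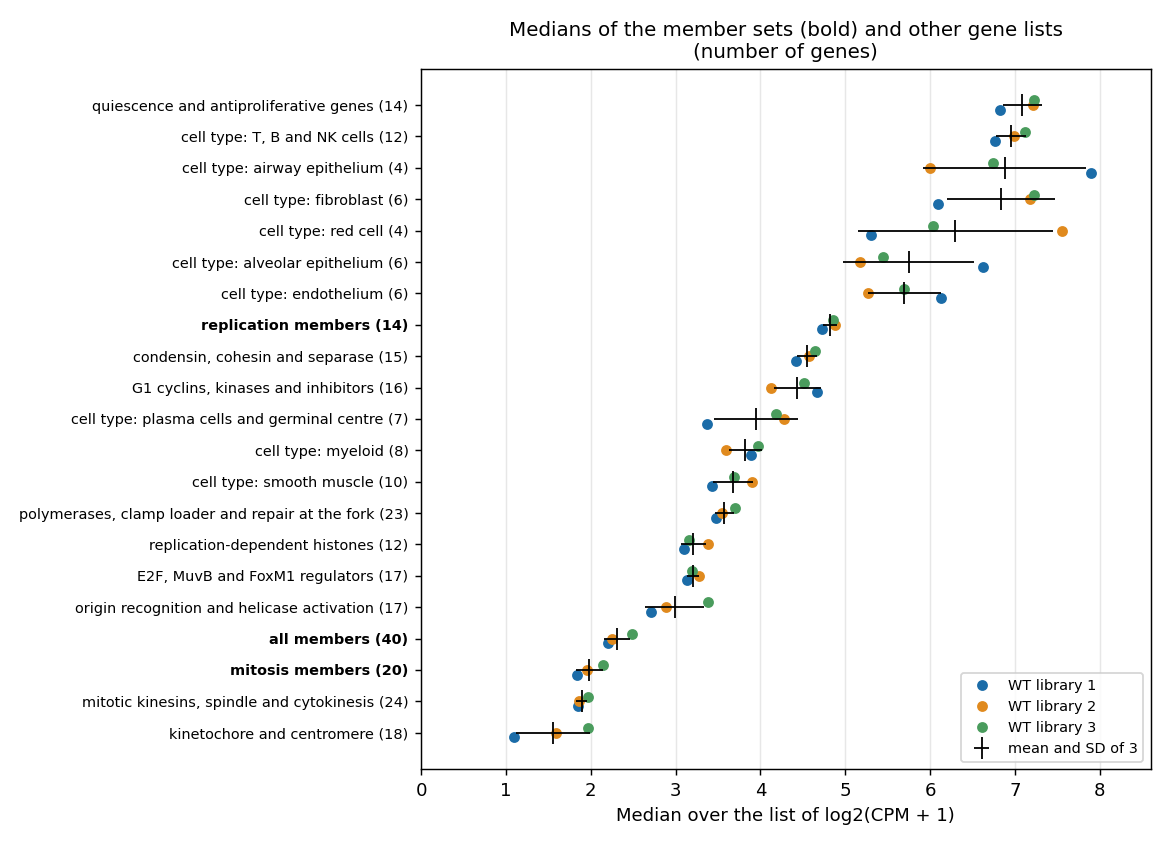
Median of log2(CPM + 1) over each list in libraries 1, 2 and 3 (points) with the mean and SD of the 3 (bars), the number of genes in brackets and the sets drawn from the 40 genes in bold. The replication genes lie at 4.82, the mitosis genes at 1.98, and the quiescence list at 7.09 is the highest drawn.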

How the data were processed

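The values that the authors deposited are raw counts, as whole numbers without normalization, for 48709 mouse genes. Per the labels' protocols, libraries were made from total RNA with a stranded kit. STAR 2.6.1d, featureCounts 1.6.3, Trimmomatic 0.38, DESeq2 1.18.1 and FastQC are named in the submitters' processing notes, with human builds (hg38 and GRCh38), although the gene IDs are those of the mouse. Of 48349 IDs shared with GENCODE M21 on GRCm38, 42754 had identical coordinates, among them 36 of the 40 genes described. How featureCounts treated strand is not stated, so genes with antisense neighbours are uncertain. The columns, named as controls 1 to 3, were assigned to WT libraries 1 to 3 by number. The WT titles give separate samples, and none was merged.

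CPM was computed from library totals, and levels per kb from the union of GENCODE exons. Lists were summarised by medians of log2(CPM + 1), where the pseudocount of 1 understates differences of low genes. Variation between libraries was tested by a chi-square test of homogeneity of the counts given TMM-scaled totals (edgeR 4.0.16 in R 4.3.3), with Benjamini-Hochberg adjustment over 23317 genes of at least 10 counts. No contrast exists that edgeR's quasi-likelihood test could address. The script was first tested on simulated data. The percent of a gene's 50-base words that recur in transcripts of another gene gave its uniqueness.

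All 40 genes are named, with the genes of fixed pairs and, from the other lists, the 2 highest and the lowest per kb, not all of which are printed. Genes of cell type lists are quoted beside the results they bear on, and the values of some of them are not reported here, although list sums and medians include them. The 40 genes and all lists were chosen with earlier results of these data known. Alternatives were other pseudocounts, denominators, scalings (DESeq2 1.42.0 size factors), count minimums, list summaries, lengths and leaving out each library. Lengths of principal transcripts, leaving out genes whose exons overlap another gene, and ratios without a pseudocount were added after the data were seen.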

Additional observations from a re-analysis of the deposited data

How the results depend on the processing

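No paired analysis was possible because the labels give only 1 group. The median level of the 40 genes, 2.31, was 2.02 with a pseudocount of 0.1, 2.16 with 0.5, 2.94 with nuclear protein-coding counts as denominator, 1.0 per kb, 2.85 as a mean over genes and 2.48 over genes of at least 1 CPM; leaving out 1 library gave 2.23 to 2.37. The excess of replication over mitosis genes, 2.84, kept its direction in each of these settings, at 3.17, 3.01, 2.98, 1.68, 1.98 and 2.67, at 2.40 without genes sharing over 10% of their 50-base words, and at 2.80 to 2.91 with 1 library left out. The 25 genes that varied beyond counting error became 12 to 21 with 1 library left out: 12 without library 1 (38.2% of all genes), 20 without library 2 (53.4%) and 21 without library 3 (56.8%), of which 18 were among the 25 and Cdk1, Cenpf and Mcm5 were not. A pair of list differences reversed, where the cause was not tested: the 40 genes minus the kinetochore list became -0.077 ± 0.443 over genes of at least 1 CPM, and minus the red cell list became 1.30 ± 0.35 without genes sharing words. Depth limits the lowest genes: Ttk, Bub1, Ccnb1 and Cdk1 rest on 10 to 43 counts in all.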
